A study of Mus musculus with 6 samples.

Results

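The genes of the TCA cycle and of mitochondrial carbon metabolism were followed in bone marrow neutrophils of WT mice and of mice labelled LRP5f/f/Lyz2Cre+, here LRP5-null. The set was a list of 36 symbols covering pyruvate dehydrogenase, the TCA cycle, glutamate metabolism and mitochondrial carriers. Of these, 35 were found by symbol among the 52636 rows of the deposited table, and Irg1 was found by its gene identifier under its later symbol Acod1. There were 6 libraries, 3 of each genotype, and all mice were of strain C57BL/6N and 10 weeks of age. The Lyz2-driven Cre is active in the myeloid lineage as a whole and not in neutrophils alone. The WT labels mention neither floxed alleles nor Cre. The labels name no litter or pooling, so the p-values measure the spread between these libraries, which may be technical.

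In the mitochondrion, pyruvate dehydrogenase converts pyruvate to acetyl-CoA, which citrate synthase feeds into the TCA cycle. The cycle oxidises this carbon through citrate, 2-oxoglutarate, succinate, fumarate and malate and passes the electrons to the respiratory chain. Carriers in the inner membrane exchange pyruvate, citrate, malate and 2-oxoglutarate with the cytosol. Neutrophils hold few mitochondria and draw much of their ATP from glycolysis, and activated myeloid cells divert cycle carbon to itaconate through the enzyme encoded by Irg1.

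Several features of the libraries bear on these values. They held 249841492 to 340580330 reads. Lrp5 itself was 1.29 ± 0.15 TPM (transcripts scaled to length and to a fixed total per library; SD, n = 3) in the WT libraries and 1.84 ± 0.21 TPM (SD, n = 3) in the LRP5-null libraries. The targeted transcript was thus not lower, and for the loss of LRP5 every direction below rests on the labels. Lyz2, in which Cre is inserted, was 25963 TPM in the WT mean and 13792 TPM in the LRP5-null mean. Every LRP5-null library was below every WT library for Lyz2 (log2 fold change −0.91, limma adjusted p = 0.0035). The ribosomal share of reads was lower in WT replicates 1 and 2, at 1.20% and 1.30%, than in WT replicate 3, at 3.30%, and the LRP5-null libraries, at 2.69% to 2.98%. The intronic share of reads was 7.78% to 9.0% in the WT libraries and 10.6% to 11.2% in the LRP5-null libraries. Across genes, deviations of WT replicates 1 and 2 from the mean of all libraries correlated with the GC content of transcripts at Spearman −0.61 and −0.43, against 0.33 to 0.44 in the other 4 libraries. These correlations describe libraries, since genes are not independent replicates.

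The neutrophil identity of the libraries was plain in their markers, 13 of which summed to between 389280 and 439134 TPM in every library. Of 13 genes of immature neutrophils 11 had higher means on the log scale in the LRP5-null libraries, where 58.8% of all genes tested did. Their summed levels were 57393 to 62185 TPM in WT and 58832 to 61953 TPM in LRP5-null. Most of these sums was Ngp (log2 fold change −0.14), Camp (0.35) and Ltf (0.093), so they say little of the other genes. Of 12 genes of mature neutrophils 3 were higher, with sums of 34228 to 39303 and 34759 to 35895 TPM, of which Retnlg was the largest part. At an unadjusted limma p under 0.05 there were 7 of the 13 and 4 of the 12, where 23.5% of all genes tested were. Both lists share genes with the neutrophil list. T and NK cell markers summed to 11.5 to 13.6 TPM in WT and 16.1 to 17.7 TPM in LRP5-null, and 7 of the 9 were below 1 TPM in every library. That gap lay mainly in Cd3d, at 9.33 to 10.6 TPM in WT and 13.4 to 14.5 TPM in LRP5-null. Trac, Cd4, Klrd1, Ncr1 and Nkg7 also had higher means in LRP5-null, whereas Cd3e, Cd3g and Cd8a had lower means. The sums of monocyte and macrophage (97.2 to 115 TPM), B and plasma cell (18.6 to 23.0 TPM), erythroid (12.6 to 16.6 TPM) and eosinophil and basophil markers (150 to 174 TPM) overlapped between groups. Among these the eosinophil gene Prg2 was called, with means of 1.02 TPM in WT and 2.79 TPM in LRP5-null (log2 fold change 0.91, limma adjusted p = 0.0341). The eosinophil gene Epx, below the filter, was 0 to 0.034 TPM in WT and 0.067 to 0.14 TPM in LRP5-null. Most of the eosinophil and basophil sum was Ear2, at 136 to 162 TPM over all libraries. Ear2, Mcpt8 and Ms4a2 had lower means in LRP5-null. Of the monocyte and macrophage markers, 4 of the 8 tested had higher means on the log scale in LRP5-null. Adgre1 was among these 4, at 10.3 to 12.6 TPM in WT and 14.4 to 15.6 TPM in LRP5-null (log2 fold change 0.36, limma adjusted p = 0.103). No marker was listed at 0 in every library. The part of these differences in the values below was not tested, and in bulk RNA fewer cells of a type and less RNA per cell cannot be told apart.

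The levels of the 36 genes spanned more than 3 orders of magnitude. TPM is scaled to transcript length, so levels of different genes can be set side by side, within a limit. Scaling to length does not by itself remove GC trends such as those above, and their part in these levels was not tested. Mdh2, the mitochondrial malate dehydrogenase, had the highest mean over all libraries at 242 TPM. It was followed by the pyruvate carrier subunit Mpc2 at 128 TPM, Irg1 at 120 TPM (119.99), the oxoglutarate carrier Slc25a11 at 104 TPM and glutamate dehydrogenase Glud1 at 103 TPM. In all, 22 genes had a mean of 10 TPM or more. At the other end, Pdk4 was listed at 0 in every library, and Me1, Pcx, Suclg2 and Pdp1 were below 1 TPM in every library. These 5 genes did not pass the filter of a mean of 1 TPM, and the other 31 were tested.

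**Figure D1:**
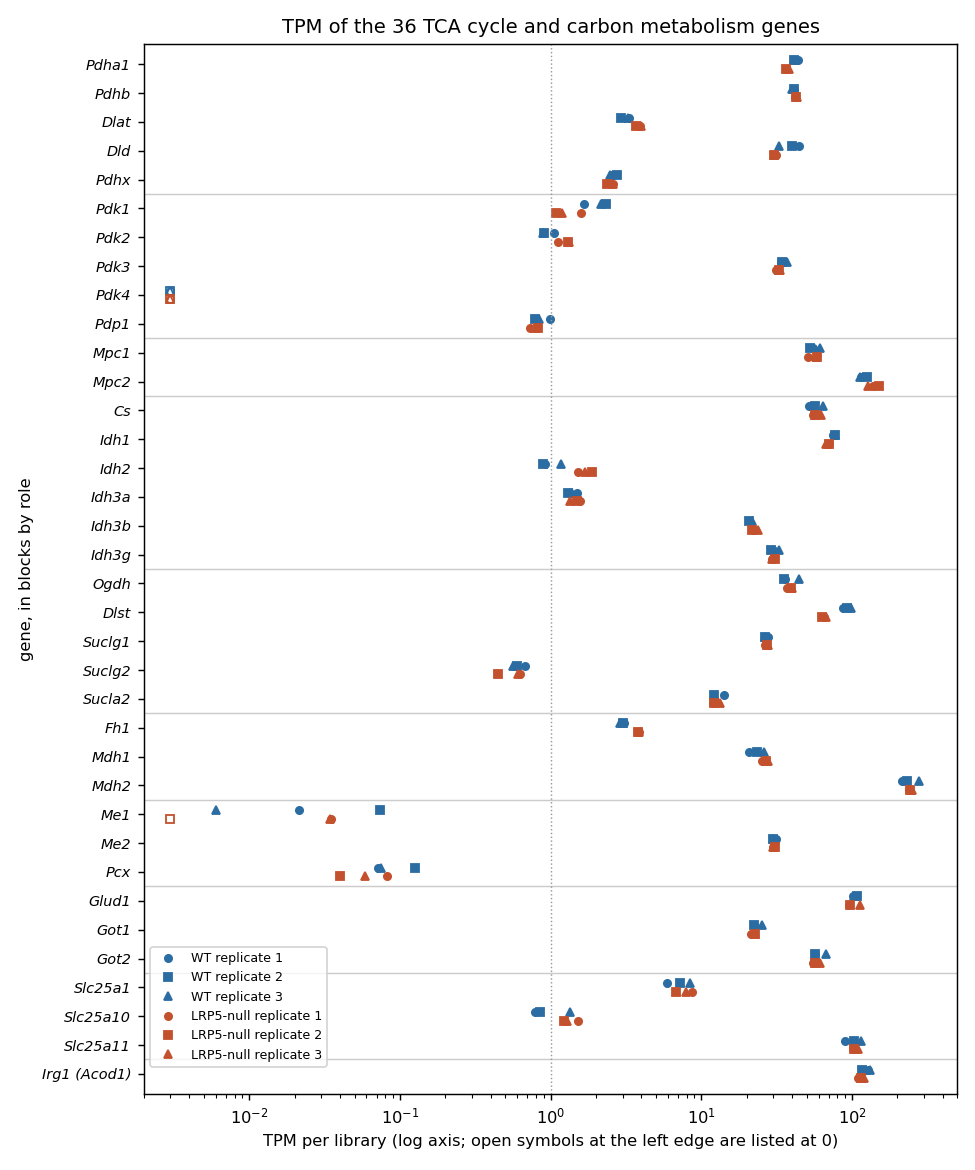
TPM of each of the 36 genes in each of the 6 libraries on a log axis, in blocks by role, with WT in blue and LRP5-null in orange and a dotted line at 1 TPM. Values of a gene lie close together across libraries while genes differ from below 0.1 TPM (Me1 in every library) to above 200 TPM (Mdh2), and the WT and LRP5-null points of Dlst are apart.

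Of the 31 genes tested, 1 was called between the groups at a limma adjusted p under 0.05, and it was lower in the LRP5-null libraries. Over all 9775 genes tested, 0.532% were called in either direction and 0.266% were called lower. The groups did not overlap for 13 of the 31 genes, 7 higher and 6 lower in the LRP5-null libraries, a share of 41.9% where 29.7% of all genes tested did not overlap (17.4% higher, 12.3% lower). At an unadjusted p under 0.05 there were 10 genes, 5 in each direction, or 32.3% against 23.5% of all genes (14.4% higher, 9.12% lower). The median log2 fold change was 0.0090 over these genes and 0.04 over all genes tested. In 16 of the 31 the log2 fold change was above 0, or 51.6% against 58.8% of all genes. Of the genes higher in LRP5-null, Idh2, Pdk2 and Slc25a10 had WT means of 0.99, 0.95 and 0.997 TPM. They passed the filter of 1 TPM only through the LRP5-null libraries, and Idh2 and Pdk2 stand in each count of higher genes above. The shares over all genes come from the same filter.

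**Figure D2:**
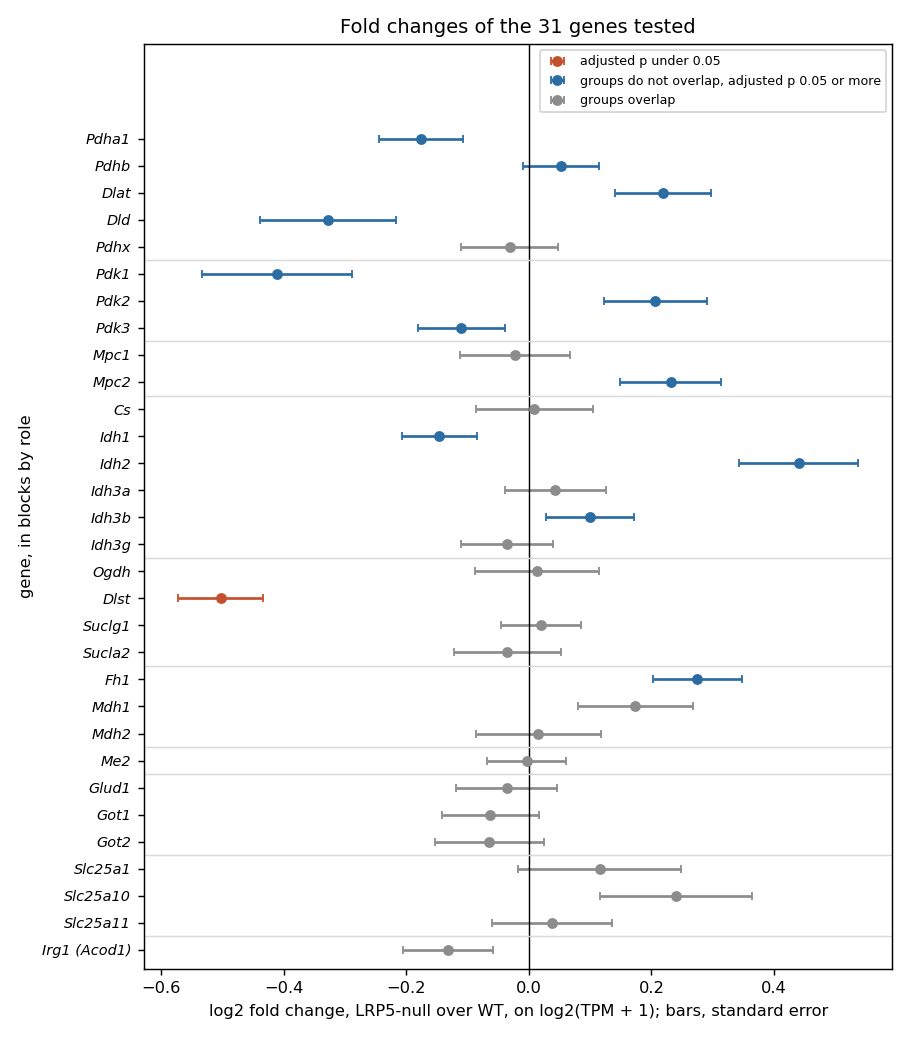
Log2 fold change of the 31 genes tested, LRP5-null over WT on log2(TPM + 1), with bars of 1 standard error and genes in blocks by role. Dlst at −0.50 is the gene with an adjusted p under 0.05 (orange), and 12 further genes have groups that do not overlap (blue), Idh2 at 0.44 the highest.

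Dlst was the gene called. It encodes the E2 core of the 2-oxoglutarate dehydrogenase complex, the dihydrolipoamide succinyltransferase whose lipoyl arm carries the succinyl group to coenzyme A. Dlst lies on chromosome 12 from 86451783 to 86475041 on the plus strand of NCBIM37 (mm9), where the annotation has no other gene overlapping it. It was 87.4, 92.1 and 98.2 TPM in WT replicates 1 to 3 and 64.7, 63.6 and 66.7 TPM in LRP5-null replicates 1 to 3. The highest LRP5-null library was well below the lowest WT library. The mean fell by 29.8%, from 92.6 ± 5.44 to 65.0 ± 1.57 TPM (SD, n = 3 each), and on the log2 scale it fell by 0.50 (standard error 0.070, limma adjusted p = 0.0371). Against WT replicate 3 alone, the WT library closest to the LRP5-null libraries in ribosomal share, it was −0.59 (limma adjusted p = 0.0822). Here and wherever that library stands alone, the spread comes from the LRP5-null libraries and the lone library is assumed to vary like them. The direction held with each library left out in turn, with log2 fold changes of −0.54 to −0.46. The call held in 1 of these 6 fits, without WT replicate 3 (limma adjusted p = 0.0117). It was lost without WT replicate 1 (limma adjusted p = 0.0556), WT replicate 2 (0.163) or LRP5-null replicates 1 (0.197), 2 (0.178) or 3 (0.168).

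Of its partners, Ogdh overlapped between the groups and Dld did not. Ogdh, the E1 subunit that decarboxylates 2-oxoglutarate, was 35.6, 35.5 and 44.5 TPM in WT replicates 1 to 3 and 37.1, 39.2 and 40.0 TPM in LRP5-null replicates 1 to 3. Its groups overlapped, and the log2 fold change was 0.014 (standard error 0.10, limma adjusted p = 0.949). Within single libraries the ratio of Dlst to Ogdh, which no scaling of a library can move, was 2.45, 2.59 and 2.20 in WT and 1.74, 1.62 and 1.67 in LRP5-null. Every LRP5-null ratio was below every WT ratio, with means of 2.42 ± 0.20 and 1.68 ± 0.062 (SD, n = 3 each).

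Dld encodes the E3 dihydrolipoamide dehydrogenase, which reoxidises the lipoyl arms of this complex and of pyruvate dehydrogenase alike. Its gene spans chromosome 12 from 32016429 to 32036302 (minus strand, NCBIM37). Dld was 44.5, 39.9 and 32.9 TPM in WT replicates 1 to 3 and 31.5, 30.3 and 30.3 TPM in LRP5-null replicates 1 to 3. The groups did not overlap, but WT replicate 3 stood next to the LRP5-null libraries. The log2 fold change was −0.33 (standard error 0.11, limma adjusted p = 0.155). It was −0.44 without WT replicate 3 (limma adjusted p = 0.0164), −0.0945 against WT replicate 3 alone (limma adjusted p = 0.529) and −0.14 once GC and length trends were removed (limma adjusted p = 0.114). The GC content of its transcript, 40.6%, was the second lowest of the 36 genes, and the part of the GC trend in this difference was not tested further. Lias, which makes the lipoyl group that Dlst and the E2 of pyruvate dehydrogenase carry and which was singled out after its values were seen, was 17.8 to 19.9 TPM in WT and 16.1 to 16.9 TPM in LRP5-null (log2 fold change −0.17, limma adjusted p = 0.217).

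**Figure D3:**
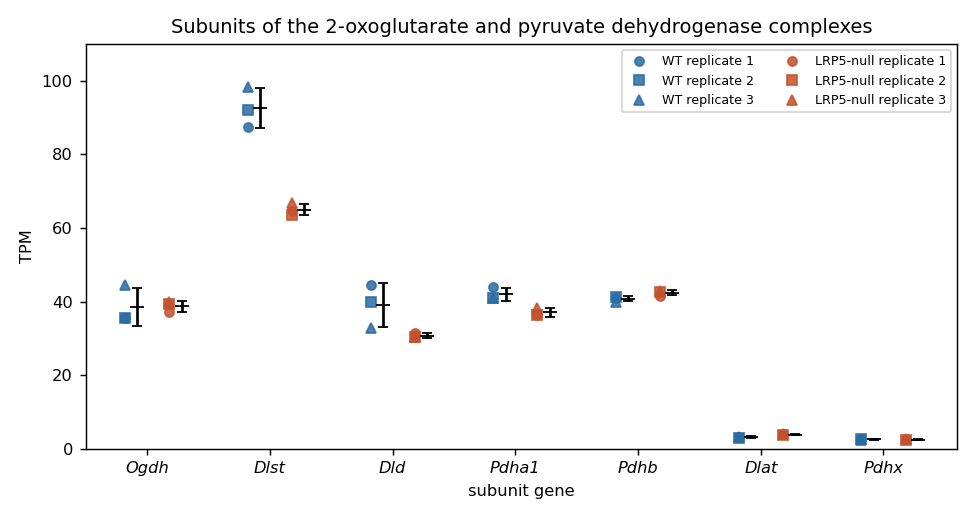
TPM of the subunit genes of the 2-oxoglutarate and pyruvate dehydrogenase complexes in each library, with the mean and SD of each group (n = 3) in black beside the points. The LRP5-null libraries of Dlst, at 63.6 to 66.7 TPM, lie below all WT libraries, at 87.4 to 98.2 TPM, whereas those of Ogdh lie among the WT libraries.

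To set Dlst beside genes that differed in other ways, the 250 bases before the RefSeq transcription start are given for Dlst, for its partner Dld, and for Idh2 and Fh1, the genes with the next smallest p and higher means in the LRP5-null libraries. They are on GRCm38.p6, 5′ to 3′ on the strand of the gene, at chr12:85110583-85110832 (Dlst, plus strand), chr12:31351472-31351721 (Dld, minus strand), chr7:80115351-80115600 (Idh2, minus strand), chr1:175625636-175625885 (Fh1, minus strand). Capitals mark matches on either strand to any of 7 motifs.
Dlst: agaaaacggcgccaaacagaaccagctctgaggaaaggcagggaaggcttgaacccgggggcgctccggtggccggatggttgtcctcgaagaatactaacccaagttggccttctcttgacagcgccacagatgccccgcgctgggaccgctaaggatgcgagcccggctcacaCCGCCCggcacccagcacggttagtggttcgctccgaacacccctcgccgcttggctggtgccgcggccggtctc
Dld: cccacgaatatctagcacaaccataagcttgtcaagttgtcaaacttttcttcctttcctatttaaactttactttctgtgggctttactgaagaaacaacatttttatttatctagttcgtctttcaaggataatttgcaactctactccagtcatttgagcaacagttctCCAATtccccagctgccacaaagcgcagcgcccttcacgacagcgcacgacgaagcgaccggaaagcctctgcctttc
Idh2: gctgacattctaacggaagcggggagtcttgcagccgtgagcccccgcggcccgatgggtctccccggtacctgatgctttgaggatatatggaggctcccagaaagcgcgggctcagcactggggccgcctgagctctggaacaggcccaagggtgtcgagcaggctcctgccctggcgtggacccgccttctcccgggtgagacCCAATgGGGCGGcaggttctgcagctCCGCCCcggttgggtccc
Fh1: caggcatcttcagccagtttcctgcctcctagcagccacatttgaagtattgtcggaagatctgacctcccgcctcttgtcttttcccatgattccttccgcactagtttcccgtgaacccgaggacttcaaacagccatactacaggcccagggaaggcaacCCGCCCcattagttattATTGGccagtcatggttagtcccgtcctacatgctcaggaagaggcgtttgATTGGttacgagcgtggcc
The motifs searched were GGGCGG (Sp family), CCAAT (NF-Y), CCGGAAG (ETS family), GCGCATGC (NRF1), CACGTG (E-box), AAGATGGCG (YY1) and AAGGTCA (estrogen-related receptors), and no match overlapped another in these 4 windows. Dlst had 1 match, to the Sp family box, 75 bases before the start. Dld had 1 CCAAT match and no Sp family match, and its window was 43.6% GC against 64.8% for Dlst. Idh2 held 2 Sp family matches and 1 CCAAT, and Fh1 held 1 and 2. None of the 4 windows held the other 5 motifs. Of the 33 genes of the set with a promoter in the RefSeq table, 66.7% held GGGCGG and 63.6% CCAAT, where 35.4% and 37.5% of all genes did. For CCGGAAG the shares were 9.09% and 7.83%, for GCGCATGC 6.06% and 2.56%, for CACGTG 12.1% and 6.86%, for AAGATGGCG 3.03% and 0.71% and for AAGGTCA 3.03% and 4.70%. A gene held a motif if any of its windows did, and the 33 genes had 44 windows. The shares of all genes cover 27025 genes, expressed in these libraries or not, so they do not show the shares among expressed genes. These are matches of letters and not binding sites. Idh3a, Me2 and Pdp1 had no entry.

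Pyruvate dehydrogenase is the gate between glycolysis and the cycle. Its E1 enzyme is a tetramer of alpha and beta chains encoded by Pdha1 and Pdhb. Pdha1 was 44.0, 41.1 and 40.9 TPM in WT replicates 1 to 3 and 36.3, 36.5 and 38.4 TPM in LRP5-null replicates 1 to 3. These groups did not overlap, and the log2 fold change was −0.18 (standard error 0.068, limma adjusted p = 0.184). Pdhb was 41.1, 41.3 and 40.0 TPM in WT (39.99 in replicate 3) and 41.6, 42.5 and 42.9 TPM in LRP5-null. Its groups did not overlap either, in the other direction and by a small margin (log2 fold change 0.05, standard error 0.062, limma adjusted p = 0.628). The ratio of Pdha1 to Pdhb was 0.99 to 1.07 in the WT libraries and 0.86 to 0.89 in the LRP5-null libraries.

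Dlat, the acetyltransferase core of pyruvate dehydrogenase, stood far below the E1 genes. It was 3.32, 2.94 and 3.28 TPM in WT replicates 1 to 3 and 3.93, 3.71 and 3.96 TPM in LRP5-null replicates 1 to 3. The groups did not overlap, and the log2 fold change was 0.22 (standard error 0.079, limma adjusted p = 0.165). Pdhx, which tethers E3 to that core, was similarly low, at 2.37 to 2.76 TPM over all libraries, and its groups overlapped (log2 fold change −0.031, limma adjusted p = 0.838). Pdhb exceeded Dlat by a factor of 12.2 to 14.0 in the WT libraries and of 10.6 to 11.5 in the LRP5-null libraries.

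Pyruvate dehydrogenase kinases switch the E1 enzyme off by phosphorylation, and Pdp1 encodes a catalytic subunit of the phosphatase that turns it on again. Pdk3 was the main kinase transcript in these neutrophils, with 91.4% to 92.5% of the summed TPM of the 4 kinases in WT and 92.0% to 93.2% in LRP5-null. It was 33.5, 34.3 and 37.1 TPM in WT replicates 1 to 3 and 31.2, 32.6 and 33.2 TPM in LRP5-null replicates 1 to 3. The groups stood just apart (log2 fold change −0.11, standard error 0.072, limma adjusted p = 0.382). Pdk1, a hypoxia-induced kinase, was 1.65, 2.32 and 2.14 TPM in WT and 1.58, 1.09 and 1.19 TPM in LRP5-null. LRP5-null replicate 1 lay just under WT replicate 1, and the log2 fold change was −0.41 (standard error 0.12, limma adjusted p = 0.133). Pdk2 went the other way, at 1.05, 0.90 and 0.89 TPM in WT and 1.13, 1.30 and 1.32 TPM in LRP5-null, without overlap (log2 fold change 0.21, standard error 0.084, limma adjusted p = 0.196). Of the summed kinase TPM, Pdk1 thus made up 5.36% ± 0.81 in WT and 3.70% ± 0.84 in LRP5-null (SD, n = 3 each), and Pdk2 2.51% ± 0.35 and 3.57% ± 0.22. The share of Pdk1 overlapped between the groups and that of Pdk2 did not. Pdp1, below the filter, was 0.78 to 0.99 TPM in WT and 0.73 to 0.82 TPM in LRP5-null.

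Pyruvate enters the matrix through a carrier of MPC1 and MPC2 chains. Mpc2 was 115, 126 and 113 TPM in WT replicates 1 to 3 and 138, 151 and 128 TPM in LRP5-null replicates 1 to 3. Each LRP5-null library was above each WT library, LRP5-null replicate 3 by the least (log2 fold change 0.23, standard error 0.083, limma adjusted p = 0.163). Mpc1, at 52.9 to 61.6 TPM in WT and 50.7 to 58.7 TPM in LRP5-null, overlapped between groups (log2 fold change −0.022, limma adjusted p = 0.901). The ratio of Mpc2 to Mpc1 was 2.1 ± 0.27 in WT and 2.5 ± 0.26 in LRP5-null (SD, n = 3 each), and its groups overlapped.

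**Figure D4:**
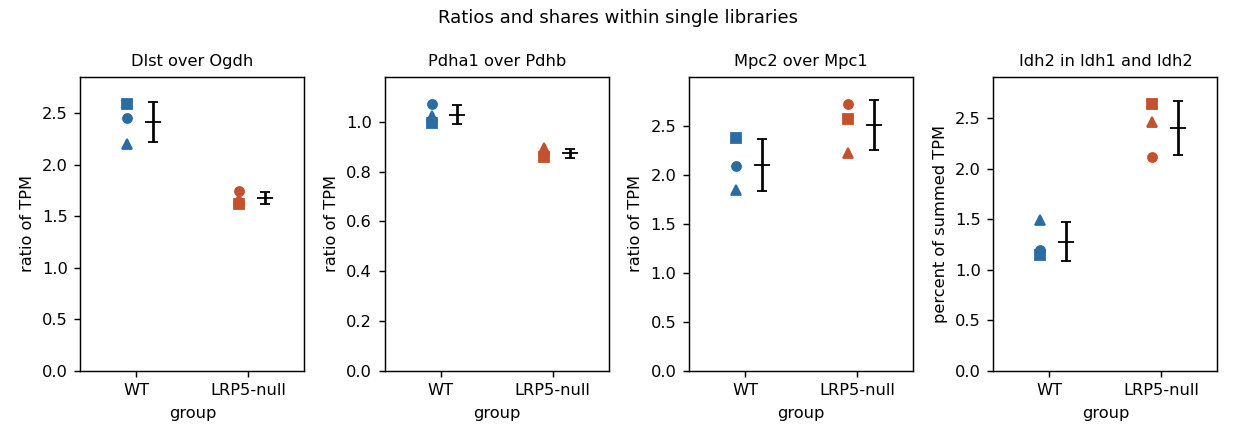
Ratios of TPM (first 3 panels) and the Idh2 share of summed Idh1 and Idh2 TPM in percent (last panel) for each library, with WT in blue, LRP5-null in orange and the mean and SD (n = 3) in black, on axes that start at 0. The groups are apart for Dlst over Ogdh, Pdha1 over Pdhb and the Idh2 share, and overlap for Mpc2 over Mpc1.

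Citrate synthase and the isocitrate dehydrogenases open the cycle. Cs, which joins acetyl-CoA to oxaloacetate, had means of 57.8 ± 6.39 TPM in WT and 58.0 ± 3.47 TPM in LRP5-null (SD, n = 3 each), with overlap. Isocitrate is oxidised by the NAD-dependent IDH3 complex of the cycle and by the NADP-dependent IDH1 of the cytosol and IDH2 of the matrix. Idh2 (chromosome 7 from 87239732 to 87260278, minus strand, NCBIM37) was 0.91, 0.89 and 1.18 TPM in WT replicates 1 to 3 and 1.52, 1.89 and 1.70 TPM in LRP5-null replicates 1 to 3. Every LRP5-null library was above every WT library, and WT replicate 3 was the highest of the WT libraries. The log2 fold change, 0.44 (standard error 0.097, limma adjusted p = 0.0892), was the highest of the genes tested here and did not pass the threshold. The mean of Idh2 was 0.99 TPM in WT and 1.70 TPM in LRP5-null, so it passed the filter of 1 TPM only through the LRP5-null libraries. On TPM itself the means differed 1.72-fold, since the added 1 TPM dampens a gene at this level. Without WT replicate 3 Idh2 was called, at 0.51 (limma adjusted p = 0.0211), and in none of the other alternatives (limma adjusted p = 0.0534 to 0.314).

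Idh1 was the predominant isocitrate dehydrogenase transcript. It was 75.0, 76.9 and 77.4 TPM in WT replicates 1 to 3 and 70.1, 69.8 and 67.2 TPM in LRP5-null replicates 1 to 3, with the LRP5-null libraries all lower (log2 fold change −0.15, standard error 0.061, limma adjusted p = 0.206). Idh2 accordingly made up 1.28% ± 0.19 of the summed TPM of Idh1 and Idh2 in WT and 2.41% ± 0.27 in LRP5-null (SD, n = 3 each), without overlap. The 3 genes of IDH3 were at unequal levels. The catalytic alpha chain Idh3a was 1.30 to 1.56 TPM over all libraries, whereas Idh3b was 20.5 to 23.8 TPM and Idh3g 29.0 to 33.0 TPM. Idh3b had groups just apart, at 20.5 to 21.6 TPM in WT and 21.7 to 23.8 TPM in LRP5-null (log2 fold change 0.10, limma adjusted p = 0.424). Idh3a and Idh3g overlapped, with log2 fold changes of 0.04 and −0.036.

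Succinyl-CoA ligase, which yields ATP or GTP according to its beta chain, followed none of these patterns. Suclg1, the shared alpha chain, was 26.3 to 27.6 TPM in WT and 26.4 to 27.8 TPM in LRP5-null. Sucla2, the beta chain for ATP, was 12.1 to 14.0 TPM and 11.9 to 13.3 TPM, and both genes overlapped between the groups (log2 fold changes 0.020 and −0.035, limma adjusted p = 0.877 and 0.835). Suclg2, the beta chain for GTP, was below 1 TPM in every library and made up 3.52% to 4.99% of the summed TPM of the beta chains.

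Fumarase, encoded by Fh1, hydrates fumarate to malate. Its gene spans chromosome 1 from 177530505 to 177555766 (minus strand, NCBIM37) and overlaps Kmo on the plus strand. Whether strand was used in counting is not given in the sources used here, and without it reads of the overlap cannot be told apart, which holds also for Pdha1 with Map3k15 and Slc25a11 with Rnf167. Fh1 was 3.06, 3.04 and 2.89 TPM in WT replicates 1 to 3 and 3.86, 3.78 and 3.85 TPM in LRP5-null replicates 1 to 3. Within each group the libraries were nearly alike, and the groups were well apart. The log2 fold change was 0.27 (standard error 0.072, limma adjusted p = 0.112), and 0.31 against WT replicate 3 alone (limma adjusted p = 0.237). Fh1 was called in 1 alternative, once GC and length trends were removed, at 0.29 (limma adjusted p = 0.0418).

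Malate dehydrogenase works in the matrix as MDH2 and in the cytosol as MDH1, and both serve the malate-aspartate shuttle. Mdh2 was 214, 230 and 280 TPM (230.5 and 279.7 to a further digit) in WT replicates 1 to 3 and 237, 242 and 248 TPM in LRP5-null replicates 1 to 3. WT replicate 3 was the highest and WT replicate 1 the lowest of all libraries, so that the groups overlapped (log2 fold change 0.016, limma adjusted p = 0.941, with a sign that changed among scalings). Mdh1 was 20.9, 23.5 and 26.1 TPM in WT and 25.3, 26.8 and 27.5 TPM in LRP5-null, also with overlap (log2 fold change 0.17, standard error 0.094, limma adjusted p = 0.303). The share of Mdh1 in the sum of both was 8.54% to 9.27% in WT and 9.66% to 10.0% (9.998%) in LRP5-null, without overlap.

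The enzymes that fill or drain the cycle differed in level more than between groups. Me2, the mitochondrial malic enzyme, was 31.1, 29.7 and 29.9 TPM in WT replicates 1 to 3 and 29.7, 30.9 and 29.8 TPM in LRP5-null replicates 1 to 3. The libraries lay within each other's range (log2 fold change −0.0036, standard error 0.065, limma adjusted p = 0.980), with a sign that changed among scalings. The cytosolic malic enzyme Me1 reached at most 0.074 TPM and pyruvate carboxylase Pcx, the main anaplerotic enzyme of liver, at most 0.13 TPM.

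Glud1, which interconverts glutamate and 2-oxoglutarate, was 101, 108 and 102 TPM in WT replicates 1 to 3 and 95.1, 96.9 and 112 TPM in LRP5-null replicates 1 to 3. LRP5-null replicate 3 was the highest of all libraries, and the groups overlapped (log2 fold change −0.036, standard error 0.082, limma adjusted p = 0.819). The cytosolic and mitochondrial aspartate aminotransferases Got1 and Got2 also overlapped (log2 fold changes −0.063 and −0.064, limma adjusted p = 0.658 and 0.688). Got1 made up 27.9% of their summed TPM in the mean of each group.

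Among the carriers, Slc25a11, which exchanges 2-oxoglutarate for malate, was 89.9, 104 and 115 TPM in WT replicates 1 to 3 and 102, 104 and 110 TPM (110.1) in LRP5-null replicates 1 to 3, with overlap (log2 fold change 0.038, limma adjusted p = 0.842) and a sign that turned with median-ratio scaling. The dicarboxylate carrier Slc25a10 was 0.79, 0.85 and 1.35 TPM in WT and 1.52, 1.23 and 1.29 TPM in LRP5-null. WT replicate 3 lay within the LRP5-null range and the other WT libraries below it. Its log2 fold change was 0.24 (standard error 0.12, limma adjusted p = 0.282), 0.36 without WT replicate 3 (limma adjusted p = 0.0444) and −0.0072 against WT replicate 3 alone (limma adjusted p = 0.982). The citrate carrier Slc25a1 was 5.90 to 8.38 TPM in WT and 6.82 to 8.67 TPM in LRP5-null, with overlap.

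Irg1, the enzyme that makes itaconate from the cycle intermediate cis-aconitate, was 128, 117 and 131 TPM in WT replicates 1 to 3 and 109, 114 and 120 TPM (120.1) in LRP5-null replicates 1 to 3. LRP5-null replicate 3 was above WT replicate 2, and the log2 fold change was −0.13 (standard error 0.074, limma adjusted p = 0.317). Its level in unstimulated marrow neutrophils thus exceeded those of citrate synthase and of every isocitrate dehydrogenase gene.

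Summed over all 36 genes, TPM was 1422 ± 75.0 in WT and 1386 ± 35.8 in LRP5-null (SD, n = 3 each), with overlap. The sum over 2-oxoglutarate dehydrogenase and succinyl-CoA ligase genes was 165 to 182 TPM in WT and 141 to 148 TPM in LRP5-null, a difference that the lower mean of Dlst made up in full. WT replicate 3 was nearer to the LRP5-null mean than to the mean of the other WT libraries on the log scale for 16 of the 31 genes (51.6%), among them Dld, Mdh1 and Slc25a10, and for 62.3% of all genes tested. Dlst, Idh2, Fh1 and Pdk1 were not among the 16.

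**Figure D5:**
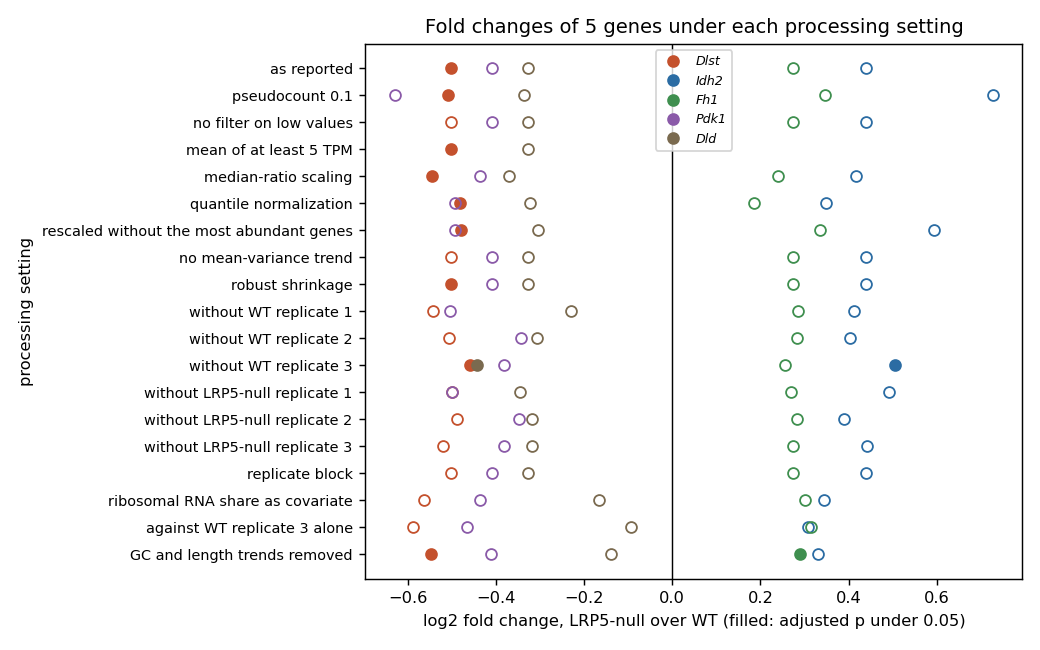
Log2 fold change, LRP5-null over WT, of Dlst, Idh2, Fh1, Pdk1 and Dld under each processing setting, with filled points for an adjusted p under 0.05. Each gene keeps its sign throughout, Dlst lies between −0.59 and −0.46, and Dld nears 0 against WT replicate 3 alone.

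Further genes of these reactions were read from the same test. Of 53 on that list 52 were found and 31 tested, and limma called 0 at an adjusted p under 0.05. At an unadjusted p under 0.05 there were 6, 3 in each direction, or 19.4% against 23.5% of all genes, and 10 had groups without overlap, 5 in each direction, or 32.3% against 29.7%. Succinate dehydrogenase links the cycle to the respiratory chain. Its iron-sulfur subunit Sdhb was 60.5, 72.7 and 73.6 TPM in WT replicates 1 to 3 and 81.9, 83.3 and 78.1 TPM in LRP5-null replicates 1 to 3, without overlap (log2 fold change 0.24, limma adjusted p = 0.181). The flavoprotein Sdha and the membrane anchors Sdhc and Sdhd overlapped, with log2 fold changes of 0.12, 0.08 and −0.050 (limma adjusted p from 0.357 to 0.743), and the sign of Sdhc and Sdhd changed when single libraries were left out. The assembly factor Sdhaf1 was 0.85 to 1.02 TPM in WT and 1.11 to 1.42 TPM in LRP5-null, without overlap (log2 fold change 0.23, limma adjusted p = 0.180). Its WT mean was 0.92 TPM, so it passed the filter of 1 TPM only through the LRP5-null libraries. The acylcarnitine carrier Slc25a20 was 52.4 to 55.9 TPM in WT and 47.6 to 49.2 TPM in LRP5-null, without overlap (log2 fold change −0.17, limma adjusted p = 0.184), and it was called in 1 alternative, with GC and length trends removed, at −0.20 (limma adjusted p = 0.0498). The glutamine transporter Slc1a5 was 2.1 to 3.4 TPM in WT and 3.3 to 4.0 TPM in LRP5-null (log2 fold change 0.36, limma adjusted p = 0.179), with WT replicate 3 above LRP5-null replicate 1. The log2 fold change of Slc1a5 was 0.24 without WT replicate 1 (limma adjusted p = 0.339), 0.49 without WT replicate 3 (limma adjusted p = 0.0319) and 0.10 against WT replicate 3 alone (limma adjusted p = 0.688).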

How the data were processed

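The authors aligned reads to mm9 and name DESeq2, per the paper's methods and the submitters' processing notes, and deposited TPM (per transcript length, fixed total per library) for each library. The program behind the TPM is not given in the sources used here. A read summary deposited by the authors gives counts of reads, percent shares of reads, ratios for coverage bias at transcript ends, a coverage variation score and insert sizes. The labels name a Percoll gradient and an mRNA kit, the methods a sort on CD11b and Ly6G and a stranded total RNA kit. The methods name single-end reads, the read summary paired-end reads of 94 bases, and whether its totals count reads or pairs is not given in the sources used here.

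Since TPM holds no counts, log2(TPM + 1) values were fitted with limma 3.58.1 (R 4.3.3) and a mean-variance trend, for all genes averaging 1 TPM or more, without covariates, and p was adjusted by Benjamini-Hochberg over all of them. A gene was called at an adjusted p under 0.05. The fold scale understates changes of low genes. The depth behind a single TPM is unknown. Coordinates, lengths and GC (longest coding transcript, 89.7% of genes tested) came from GENCODE M1 (NCBIM37) and promoters from RefSeq (GRCm38.p6). On simulated data the fit recovered 46.0% of 200 genes changed by 0.5 on the log2 scale, 91.0% at 1 and 98.5% at 2. It made 6, 12 and 13 false calls there. A gene not called may thus differ by 0.5. The simulated noise was independent between genes and held no trend shared within a library, such as that of GC, so these rates may not hold for the real libraries. The members, lists and alternatives were chosen with earlier results of these data known. Values in every library are given for genes called, the 12 members with the smallest p, the most abundant of each role, and any whose groups stood apart against most of its role, and of the other genes of the pathway the 4 with the smallest p and Sdha to Sdhd are named (1 more gene of that rule is not reported here). Ogdh, Lias and others named were added after their values were seen. Alternatives were another pseudocount (0.1), filters (none, 5 TPM), scalings, shrinkage settings, each library left out, a replicate block, the ribosomal share as a covariate, WT replicate 3 alone and removal of GC and length trends (splines, 4 degrees of freedom each).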

Additional observations from a re-analysis of the deposited data

How the results depend on the processing

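The number of genes called over all genes, 52 (26 higher, 26 lower), was 3 without a filter (3 higher, 0 lower), 29 at a mean of 5 TPM (10 higher), 95 after rescaling without the most abundant genes (68 higher), 4 with the replicate block (2 and 2), 6 with the ribosomal share as a covariate (1 and 5), 6 against WT replicate 3 alone (1 and 5) and 430 with GC and length trends removed (157 and 273). Median-ratio scaling gave 42 lower. Leaving out each library in turn gave 2 to 1920 (0 to 1180 higher, 2 to 740 lower), the most without WT replicate 3. Of the set, 1 gene was called, and 0 without a filter, without the mean-variance trend, with the replicate block, with the covariate and against WT replicate 3 alone, 2 with the trends removed, and 0 to 4 with a library left out. For Dlst, the limma adjusted p was then 0.0997, 0.0507, 0.112, 0.0542 and 0.0822, with log2 fold changes from −0.59 to −0.50. Without WT replicate 3 the 4 were Dlst, Dld, Idh2 and Slc25a10. Of the further genes 1, Slc25a20, was called with the trends removed and 0 to 3 with a library left out. Groups without overlap numbered 13, 8 at a mean of 5 TPM (fewer genes tested) and 23 against WT replicate 3 alone (fewer libraries). The median log2 fold change of 0.0090 was −0.034 with median-ratio scaling, −0.033 with the covariate, −0.095 against WT replicate 3 alone and −0.040 to 0.039 with a library left out.

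Among the genes named, the sign turned for 6 near 0 and for Slc25a10, none of them called under that setting, and the cause was not tested. With median-ratio scaling Mdh2 was −0.028 and Slc25a11 −0.0061. Me2 was 0.022 after rescaling. With the covariate Mdh2 was −0.14, Me2 0.0076, Slc25a11 −0.084 and Sdhc −0.077 (rounded from −0.0765). Against WT replicate 3 alone Mdh2 was −0.21, Me2 0.014, Slc25a10 −0.0072, Slc25a11 −0.13 and Sdhc −0.14 (−0.145). With the trends removed Mdh2 was −0.10, Me2 0.015 and Slc25a11 −0.060. With a library left out the ranges were −0.067 to 0.13 for Mdh2, −0.021 to 0.017 for Me2, −0.055 to 0.12 for Slc25a11, −0.11 to 0.0080 for Glud1, −0.0077 to 0.20 for Sdhc and −0.12 to 0.013 for Sdhd. Samples with the same replicate number deviated together with correlations of 0.23, −0.0075 and 0.13, so the numbers were not taken as pairs, and not every library correlated best with its own number.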

Other observations

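Transcripts of 2 further genes of these reactions stood apart in WT replicate 1 alone, both picked after their values were seen. D2hgdh, which oxidises D-2-hydroxyglutarate to 2-oxoglutarate, was 2.73 TPM in WT replicate 1 and 6.75 to 8.04 TPM in the other 5 libraries. Slc25a12, a mitochondrial aspartate-glutamate carrier, was 29.2 TPM in WT replicate 1 and 15.9 to 19.2 TPM in the other 5. Neither was called between the groups (log2 fold changes 0.44 and −0.16, limma adjusted p = 0.371 and 0.646). WT replicate 1 also stood apart in the ratios for coverage bias at transcript ends. Its ratio was 0.57 at the 5′ end, against 0.50 to 0.52 in the other 5 libraries, and 0.19 at the 3′ end, against 0.23 to 0.26. The part of this in the values of the 2 genes was not tested.

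Alternative enzymes for several steps were nearly absent from these neutrophils. Ogdhl, a relative of Ogdh, and the mitochondrial malic enzyme Me3 were listed at 0 in every library, as was Pdk4. Of the enzymes that break down branched-chain 2-oxo acids, Bckdha was 14.1 to 20.2 TPM over all libraries, whereas its partners Bckdhb and Dbt were at most 0.15 and 0.51 TPM. The lactate dehydrogenase gene Ldha, at 453 to 609 TPM, and the lactate exporter gene Slc16a3, at 404 to 529 TPM, were above all 36 genes of the set, and their groups overlapped.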
